A study of Rattus norvegicus with 32 samples.

Results

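The comparison described is Ang II x Control at 6 h in the C6 rat glioma cell line, 8 of the 32 arrays of the study. The members are the 4 Control arrays and the 4 Ang II arrays of 6 h, taken by their titles, and each Ang II array was set against the Control array of the same replicate number, which lay on the same slide. C6 cells are an established line that came from a chemically induced rat brain tumour and are used as a glioma model. All groups were confluent cultures in medium with serum. Control cells received no Ang II, and the Ang II cells received 100 nM of the peptide. The other groups of 6 h, Ang II+Los and Ang II+PD123319, also received 100 nM Ang II, after 10 µM of the AT1 antagonist Losartan or of the AT2 antagonist PD123319, and they entered the fit and are given beside a few results only. Expression was read with a single dye on Agilent whole rat genome arrays.

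Angiotensin II is the effector peptide of the renin-angiotensin system. Its AT1 receptor couples mainly to Gq, phospholipase C, calcium and protein kinase C, and reaches ERK signalling partly through release of heparin-binding EGF-like growth factor, while the AT2 receptor often opposes AT1. In tumour cells the peptide is best known as a growth and angiogenic signal. Several gene programmes described below are regulated as blocks. Unfolded protein in the endoplasmic reticulum activates the sensors ATF6, IRE1 (which splices Xbp1) and PERK, shortage of amino acids activates GCN2, and PERK and GCN2 both raise translation of ATF4, which switches on Ddit3 (CHOP), amino acid enzymes and aminoacyl-tRNA synthetases. Unfolded protein in the cytosol activates HSF1, and entry into S phase is driven by E2F factors.

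Signals are given as normalized log2 processed signal, a scale on which a step of 1 is a 2-fold change, and can be compared between arrays for 1 gene but not between genes. Between 65.7% and 75.8% of spots were well above background on these 8 arrays. The median correlation of each 6 h array with the others ran from 0.976 to 0.988. Arrays of replicates 1 to 3 were scanned in 1 session and those of replicate 4 in another, and Control always took the first position on a slide and Ang II the second, so that position and treatment cannot be told apart. The replicates were not alike in 1 respect that bears on many results. In all 4 groups, endoplasmic reticulum stress genes stood higher on the arrays of replicates 2 and 4 than on those of replicates 1 and 3. The median signal of the 25 genes of that list described below lay between 10.71 and 12.34 on the 8 arrays of replicates 2 and 4 of the 4 groups, and between 9.76 and 10.05 on the 8 arrays of replicates 1 and 3. The source of this difference was not tested. Values given without replicate 4 are also those within the scan session of replicates 1 to 3. Nothing in the labels tells whether the replicates were separate cultures, so the p-values measure the spread between these arrays, which may be technical.

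A gene passed the limits when its limma p before adjustment was under 0.05 and its ratio of Ang II to Control was over 1.2 or under 0.8. The spread behind that p came from all 16 arrays of 6 h, antagonist groups included. Of 16444 genes tested, 1884 passed the limits, 11.5% of all, with 1115 higher in Ang II (6.78%) and 769 lower (4.68%). Scaling each array to its 75th percentile, in place of cyclic loess, moved the higher share of these calls from 59.2% to 44.2%. In limma with Benjamini-Hochberg adjustment, 0 genes reached an adjusted p under 0.05, and 3532 genes (21.5%) had an unadjusted p under 0.05. A paired t-test per gene on the same values, the kind of test named in the series record, put 730 genes past the limits. It also left 0 genes at that adjusted limit. With only genes above background on all 16 arrays there were 69, and without replicate 3 there were 227. At an adjusted p under 0.10 there were 381 genes (2.32%), 245 higher (1.49%) and 136 lower (0.827%). Changes were small. Among the genes past the limits, 9 were more than 2-fold higher and 24 more than 2-fold lower, and 1388 moved the same way in all 4 pairs. Leaving out each replicate number in turn, 532 of the 1884 calls were kept every time, 379 higher and 153 lower. Of the 150 genes past the limits that are named in the text, 71 lost the call without replicate 2 and 77 without replicate 4, against 15 without replicate 1 and 14 without replicate 3. The background correction mattered as well. With normexp correction of the mean signal and an offset of 50 added to every signal, 60 of these 150 genes lost the call and 69 had a log2 fold change more than 1.5 times smaller. The words rose and fell below are used of genes past the limits. In these words 6.78% of all genes rose and 4.68% fell, the shares to set beside each list count.

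**Figure D1:**
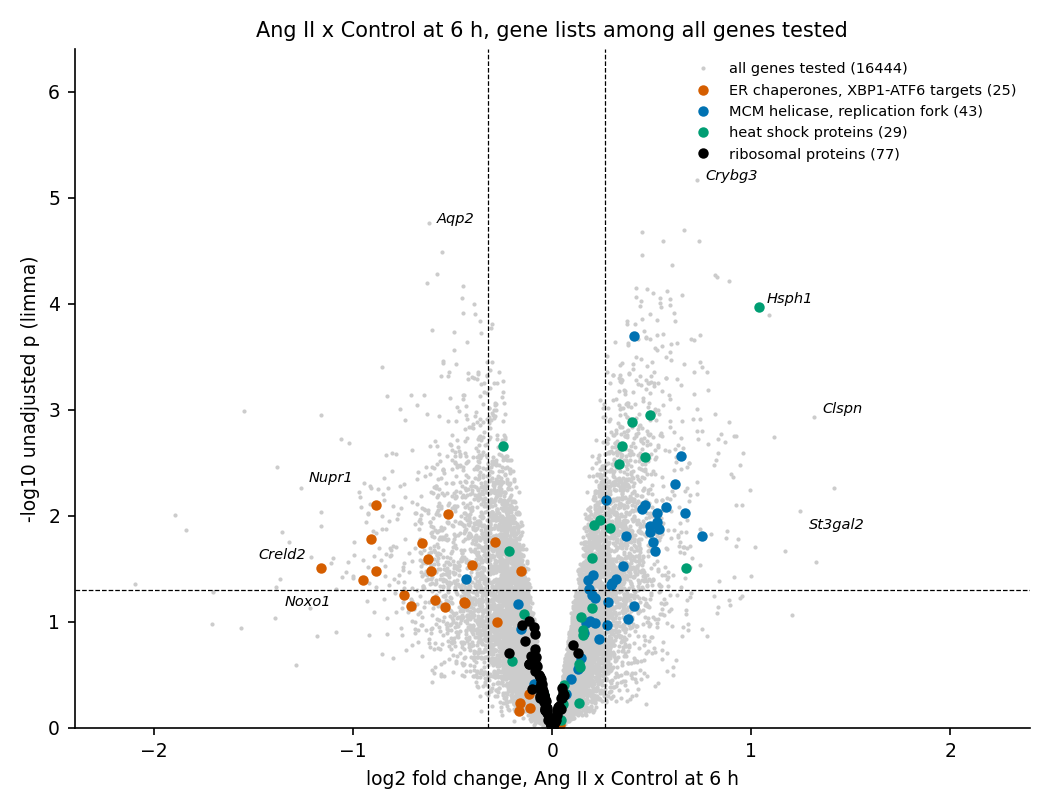
Log2 fold change of Ang II x Control at 6 h (horizontal axis) against -log10 of the unadjusted limma p (vertical axis) for 16444 genes in grey, with 4 gene lists in colour. Dashed lines mark the limits of 0.05 on p and of 0.8 and 1.2 on the fold change. Members of the endoplasmic reticulum list (orange) lie to the left, replication genes (blue) and Hsph1 of the heat shock list (green) to the right, and ribosomal protein genes (black) near 0.

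The 10 genes with the lowest p-values all shared a limma adjusted p = 0.0576 and moved the same way in all 4 pairs. Crybg3, a gene with crystallin-type domains, read 3.54, 3.97, 4.52 and 4.34 in Control replicates 1 to 4 and 4.36, 4.52, 5.18 and 5.21 in Ang II. It rose by 0.73 on the log2 scale (SE 0.09), and in every pair the Ang II array was the higher. Aqp2, the vasopressin-regulated water channel (rn4 chr7:138330832-138330891, from the array probe), read 6.03, 6.60, 6.49 and 6.38 in Control and 5.55, 5.83, 5.76 and 5.88 in Ang II. These groups did not overlap, and Aqp2 had the log2 fold change -0.62 (SE 0.09). Polr3c, a subunit of RNA polymerase III, read 6.17, 6.43, 6.71 and 6.31 in Control and 6.83, 6.90, 7.02 and 6.67 in Ang II, and rose by 0.45 (SE 0.07). Socs1, the cytokine-induced inhibitor of JAK kinases, read 6.42, 5.66, 6.49 and 5.55 in Control and 7.03, 6.43, 6.77 and 6.31 in Ang II. Its log2 fold change was 0.60 (SE 0.10), with overlap between the groups but not within any pair. The other genes that rose were Slc9a3r1 (0.74), a scaffold of membrane transporters, Pard6g (0.45), a cell polarity protein, Morc4 (0.82) and the flavin monooxygenase Fmo4 (0.89). Abra (-0.58), an actin-binding protein, and Plag1 (-0.63), a zinc finger transcription factor, fell. The pair difference of smallest size among the 10 was 0.28, for Socs1 in pair 3. None of the 10 lost the call when 1 replicate was left out, but most of them were sensitive to the background correction. With normexp the log2 fold changes were 0.09 for Crybg3, -0.32 for Aqp2, 0.19 for Polr3c, 0.18 for Pard6g, 0.19 for Morc4, 0.04 for Fmo4 and -0.10 for Abra, and these 7 did not pass. Socs1 (0.33), Slc9a3r1 (0.57) and Plag1 (-0.45) passed there too. Fmo4 was well above background on 1 of 4 Control arrays. It thus entered the test only through a group given Ang II, and such entry favours a rise.

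**Figure D2:**
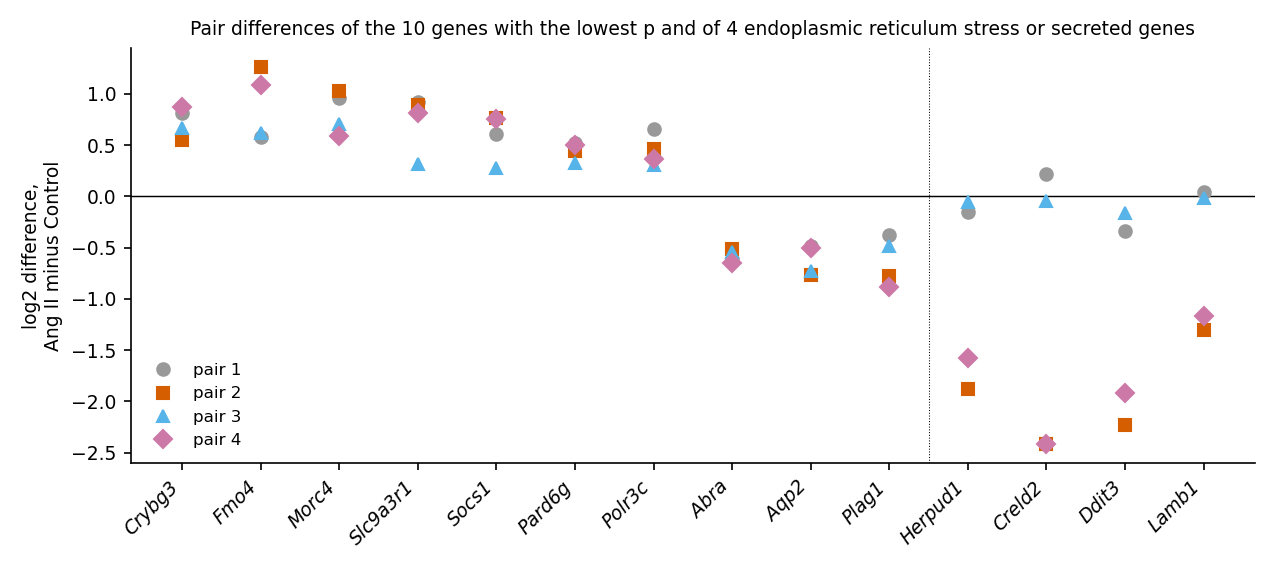
Log2 difference, Ang II minus Control, in each of the 4 pairs (symbols) for the 10 genes with the lowest p (left of the dotted line) and for Herpud1, Creld2, Ddit3 and Lamb1 (right). On the left all 4 pairs lie on the same side of 0, and on the right pairs 2 and 4 lie between -1.17 and -2.42 while pairs 1 and 3 lie between -0.34 and 0.22.

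Genes of endoplasmic reticulum stress were lower in Ang II, and nearly all of the difference came from replicates 2 and 4. Of 25 tested genes of endoplasmic reticulum chaperones and XBP1-ATF6 targets, 10 fell and 0 rose, where 4.68% of all genes fell. These counts take their spread from all 16 arrays of 6 h. With the 8 Control and Ang II arrays alone 4 members fell, and by a paired or an unpaired t-test per gene 0 did. The list median was -0.52 on the log2 scale against -0.01 over all genes tested. By pair the list median was 0.14, -1.28, 0.05 and -0.93. In pairs 2 and 4 all 25 members were lower with Ang II, and in pairs 1 and 3 there were 16 of 25 higher in each. The list's median signal was 9.93, 12.34, 9.88 and 12.30 in Control replicates 1 to 4 and 10.05, 10.99, 9.80 and 10.95 in Ang II, so that the 2 high Control arrays stood above every other array of 6 h. In bulk RNA, fewer cells with a high level and less RNA per cell cannot be told apart. Without replicate 4, 0 members fell, and without replicate 2 there was 1. With replicates 1 and 3 alone 0 fell and 3 rose.

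The promoters of several of these genes carry the sequence that ATF6 reads, the endoplasmic reticulum stress element, built of a CCAAT box and the letters CCACG 9 bases apart. In the window from 250 bases before to 50 after the start (RefSeq, GRCr8) it was found on either strand in 4 of the 8 members past the limits that had a promoter sequence (Calr, Creld2, Dnajc3 and Xbp1) and in 0.0657% of 33469 promoters of the same length. The C/EBP-ATF response element that ATF4 binds, TTGCATCA, was found in 3 of the 5 tRNA synthetase genes past the limits (Aars, Cars and Iars), in 1 of 6 of the integrated stress list (Nupr1), in 1 of 8 of the endoplasmic reticulum list (Herpud1), in 0 of 7 genes of amino acid synthesis and transport, and in 0.795% of all promoters. Among all tested members with a promoter sequence, the stress element was found in 7 of 19 of the endoplasmic reticulum list. TTGCATCA was found in 7 of 17 of the tRNA synthetase list. The lists were written from general knowledge of the pathways, so these matches do not tie the elements to the change with Ang II. A match is a description of the letters only. The stretches are printed below because these genes, with Hsph1 and Gins3 described later, stand for the programmes that moved, with the match in capitals. In Creld2 and Gins3 the match reads on the opposite strand.
Creld2, GRCr8 chr7:121789209-121789287, plus strand: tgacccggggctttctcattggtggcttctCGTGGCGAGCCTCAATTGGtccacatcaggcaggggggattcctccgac
Nupr1, GRCr8 chr1:190645919-190645986, minus strand: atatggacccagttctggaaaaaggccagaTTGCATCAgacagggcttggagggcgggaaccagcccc
Aars (now Aars1), GRCr8 chr19:55908340-55908407, plus strand: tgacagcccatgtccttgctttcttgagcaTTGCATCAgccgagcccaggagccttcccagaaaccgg
Hsph1, GRCr8 chr12:10427302-10427367, plus strand: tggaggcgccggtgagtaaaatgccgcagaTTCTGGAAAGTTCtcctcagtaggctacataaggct
Gins3, GRCr8 chr19:9434680-9434745, minus strand: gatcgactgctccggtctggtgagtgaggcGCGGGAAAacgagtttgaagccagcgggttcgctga

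Creld2, which holds the element above and encodes a secreted disulfide isomerase, read 9.86, 13.40, 9.82 and 13.18 in Control and 10.08, 10.99, 9.78 and 10.76 in Ang II. Control replicates 2 and 4 were more than 2 log2 units above every Ang II array, and Control replicates 1 and 3 were level with theirs. The result was a log2 fold change of -1.16 (SE 0.47, limma adjusted p = 0.194). Herpud1, an adaptor of endoplasmic reticulum-associated degradation (rn4 chr19:11036709-11036768), read 10.20, 13.40, 10.56 and 13.35 in Control and 10.05, 11.53, 10.51 and 11.77 in Ang II. It gave a log2 fold change of -0.91 (SE 0.33, limma adjusted p = 0.155), with pair differences of -0.15, -1.87, -0.05 and -1.58. Without replicate 4 the fold change was -0.75 for Creld2 and -0.69 for Herpud1, and neither passed. Atf6, the membrane-bound sensor, gave a log2 fold change of -0.89 (SE 0.28, limma adjusted p = 0.127) and pair differences of -0.40, -1.79, -0.07 and -1.28. The remaining genes that fell were the retrotranslocation factor Derl1 (-0.52), the ligase Syvn1 (-0.61), the co-chaperones Dnajb9 (-0.95) and Dnajc3 (-0.88), Sdf2l1 (-0.63), Calr (-0.40), the lectin chaperone calreticulin, and Xbp1 (-0.65). Hspa5, the master chaperone BiP, had -0.75 with an unadjusted p that missed the limit, as did Manf (-0.71) and Hyou1 (-0.54).

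**Figure D3:**
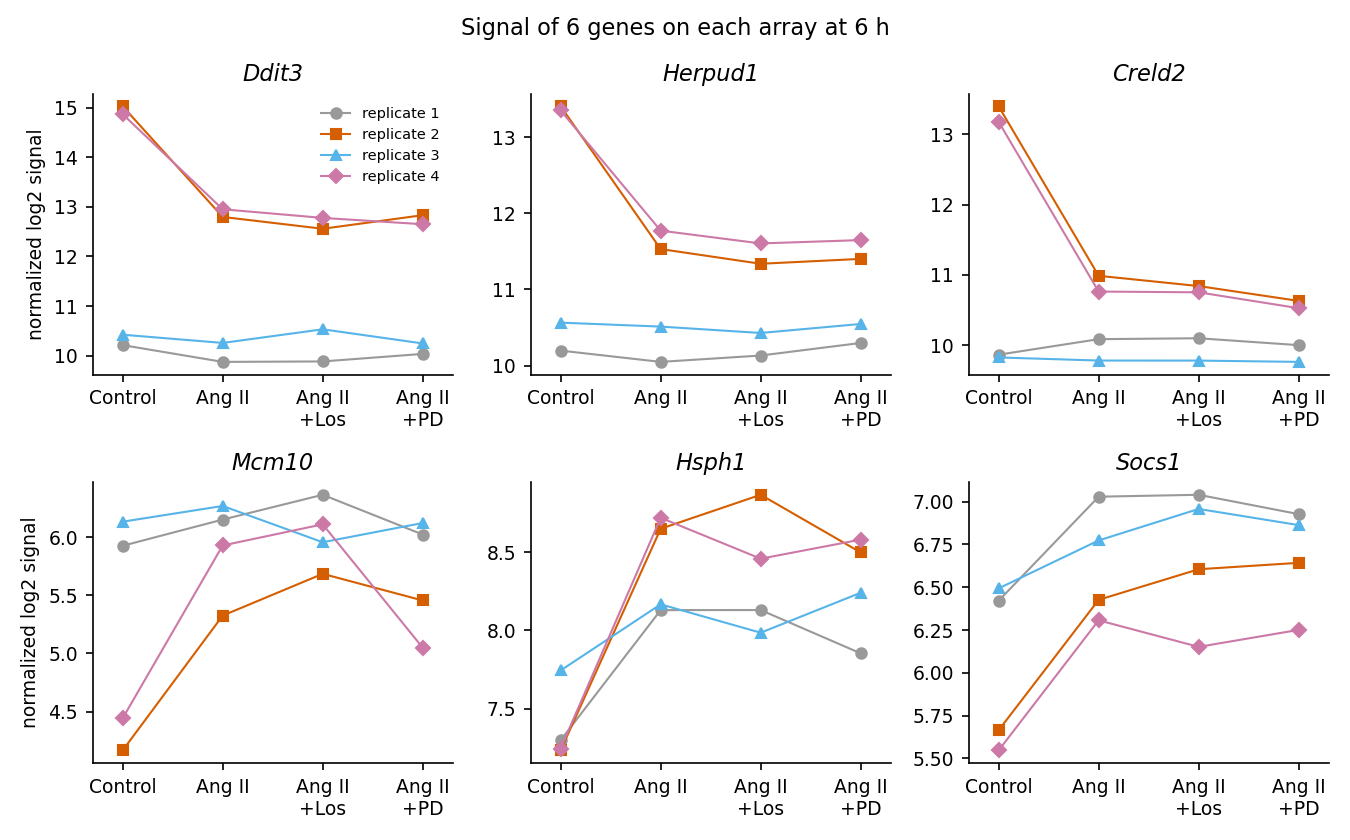
Normalized log2 signal (vertical axes, a different range in each panel) of 6 genes on the 16 arrays of 6 h, with lines joining arrays of the same replicate number. Ddit3, Herpud1 and Creld2 are high in Control replicates 2 and 4 and lower in the 3 groups given Ang II, Mcm10 is low in the same Control arrays, and Hsph1 and Socs1 are higher in Ang II in all 4 replicates.

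The integrated stress response ran the same way. Of 15 tested members 6 fell and 0 rose, the list median was -0.26, and by pair it was 0.02, -0.42, -0.11 and -0.53. Ddit3, the transcription factor CHOP that promotes death of stressed cells (rn4 chr7:67252505-67252564), read 10.21, 15.03, 10.42 and 14.87 in Control and 9.87, 12.80, 10.26 and 12.95 in Ang II. Replicates 2 and 4 lay far above replicates 1 and 3 in both groups, and within them Ang II was the lower by about 2 units. Ddit3 gave a log2 fold change of -1.16 (SE 0.37, limma adjusted p = 0.132), and -0.81 without replicate 2 and -0.92 without replicate 4, neither of which passed. Nupr1, a small stress-induced chromatin protein, read 8.56, 12.19, 9.51 and 12.14 in Control and 6.68, 10.68, 9.36 and 10.63 in Ang II, and it was lower in all 4 pairs, with differences of -1.88, -1.51, -0.15 and -1.52. It gave a log2 fold change of -1.26 (SE 0.37, limma adjusted p = 0.118). Trib3, a pseudokinase induced by CHOP, had -0.50, Ppp1r15a, the GADD34 subunit that reverses eIF2 phosphorylation, had -0.61, Eif2ak3, the sensor PERK itself, had -0.53, and Gadd45a had -0.42. The mRNA of Atf4, which is controlled mainly in translation, had -0.11 and did not pass. Without replicate 2, and also without replicate 4, only 2 members passed, and by a paired t-test per gene 1 did.

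The metabolic targets of ATF4 were lower as well. Of 18 tested genes of amino acid synthesis and transport 7 fell and 0 rose, and every member had a value below 0, with a median of -0.39. The pair medians were 0.09, -0.82, -0.05 and -0.79. Phgdh, which opens serine synthesis, read 13.88, 14.80, 13.88 and 14.84 in Control and 13.70, 14.25, 13.76 and 14.17 in Ang II. Replicates 2 and 4 of Control were the 2 highest arrays, and Phgdh gave a log2 fold change of -0.38 (SE 0.10, limma adjusted p = 0.107). Also lower were Psph (-0.56), the last enzyme of that pathway, asparagine synthetase Asns (-0.39), the cationic amino acid transporter Slc7a1 (-0.39), the glycine transporter Slc6a9 (-0.69), and both chains of the cystine exchanger, Slc7a11 (-0.67) and Slc3a2 (-0.51). Of 20 aminoacyl-tRNA synthetase genes 5 fell and 0 rose, with a list median of -0.27 and pair medians of 0.17, -0.58, -0.08 and -0.65. Aars, the alanyl-tRNA synthetase, was lower in all 4 pairs and gave a log2 fold change of -0.39 (SE 0.09, limma adjusted p = 0.0826). Cars (-0.42), Farsb (-0.36), Iars (-0.38) and Wars (-0.53) were the others. In both lists the limits were missed by Psph, Asns, Slc7a1, Slc6a9, Slc7a11, Cars, Farsb, Iars and Wars without replicate 2 or 4, by Phgdh and Aars without replicate 4, and by Slc3a2 without replicate 2, 3 or 4.

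Genes of transport out of the endoplasmic reticulum were lower by smaller amounts, in the same pairs. Of 43 genes of COPI, COPII and secretory transport 5 fell and 0 rose, where 4.68% of all genes fell, and the median was -0.15. The pair medians were 0.05, -0.42, 0.07 and -0.33, and 5 and 6 of the 43 members were above 0 in pairs 2 and 4. At an unadjusted p under 0.05 there were 12 lower and 0 higher, where 10.8% of all genes were lower by that rule. Sec23b (-0.36), a COPII coat subunit, Sec11c (-0.45), of the signal peptidase, and the tether Uso1 (-0.49) fell. Leaving out 1 replicate ended the call of Sec23b, Uso1 and Lamb1 without replicate 2 or 4, and of Sec11c without replicate 4. Lamb1, the laminin beta-1 chain that is itself secreted cargo, read 10.17, 12.03, 10.98 and 11.96 in Control and 10.22, 10.73, 10.97 and 10.79 in Ang II. Its pair differences were 0.04, -1.30, -0.01 and -1.17, and it gave a log2 fold change of -0.61 (SE 0.21, limma adjusted p = 0.142).

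**Figure D4:**
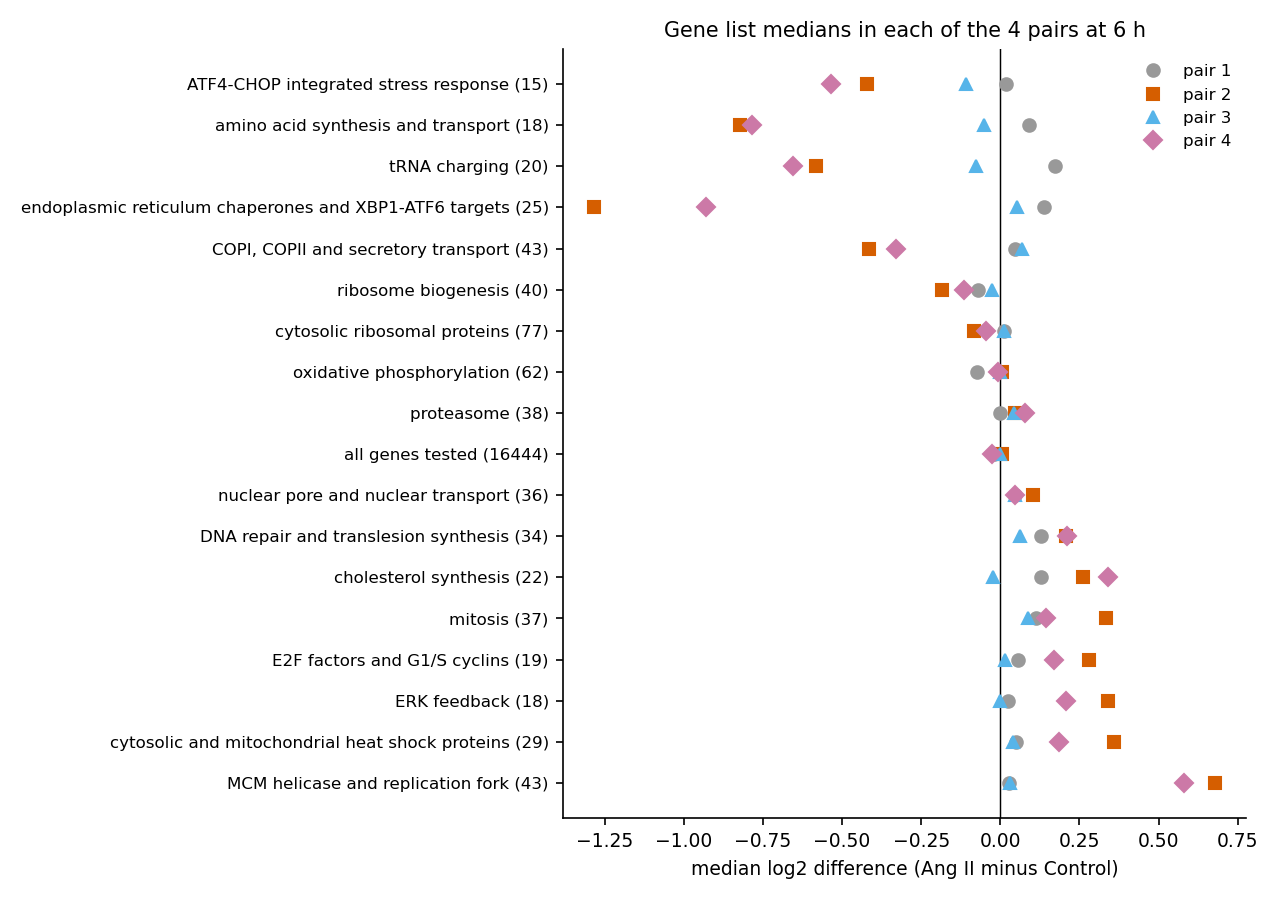
Median log2 difference, Ang II minus Control, over the tested members of 17 gene lists and over all genes (number of genes in brackets), in each of the 4 pairs (symbols). The stress and secretory lists reach -0.33 to -1.28 in pairs 2 and 4, and the replication list 0.58 and 0.68, while in pairs 1 and 3 the lists shown lie between -0.11 and 0.17.

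DNA replication genes were higher in Ang II, again mostly in replicates 2 and 4. Of 43 tested genes of the MCM helicase and replication fork 21 rose, where 6.78% of all genes rose, and 1 fell. The median was 0.30, and the pair medians were 0.03, 0.68, 0.03 and 0.58. The list's median signal was 9.97, 8.55, 9.87 and 8.89 in Control and 10.01, 9.29, 9.90 and 9.504 in Ang II, so that Control replicates 2 and 4 were the lowest of the 8. Mcm4, a subunit of the replicative helicase, read 10.01, 9.23, 10.15 and 9.54 in Control and 10.28, 9.56, 10.61 and 10.12 in Ang II. It gave a log2 fold change of 0.41 (SE 0.08, limma adjusted p = 0.0597), with pair differences of 0.28, 0.33, 0.46 and 0.59. Mcm10, which activates the loaded helicase, read 5.93, 4.17, 6.13 and 4.44 in Control and 6.15, 5.33, 6.27 and 5.93 in Ang II. Control replicates 2 and 4 stood apart below the other 6 arrays, and Mcm10 gave a log2 fold change of 0.75 (SE 0.26, limma adjusted p = 0.151), which became 0.61 without replicate 2 and 0.50 without replicate 4, neither of which passed. Pole, the catalytic subunit of the leading-strand polymerase, gave a log2 fold change of 0.65 (SE 0.17, limma adjusted p = 0.101). Gins2 (0.62) and Gins3 (0.27), of the GINS part of the helicase, rose, as did Mcm2 (0.49), Mcm5 (0.54) and Mcm6 (0.57), and the sliding clamp Pcna (0.37). Orc4l, an origin recognition subunit, was the member that fell (-0.43), with pair differences of -0.23, -1.30, 0.12 and -0.32. Without replicate 2 there were 6 members that rose and without replicate 4 there were 4. By a paired t-test per gene 2 rose. An E2F site, TTTGGCGC or TTTCCCGC on either strand, was found in 8 of the 18 promoters available for replication genes past the limits, among them that of Gins3 printed above, and in 1.45% of all promoters. Of the 35 promoters available for all tested members, 14 held it.

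The regulators of S phase entry showed fewer calls. Of 19 tested E2F factors and G1/S cyclins 5 rose and 0 fell, where 6.78% of all genes rose and 4.68% fell. E2f8, a repressor E2F that is itself induced in S phase, read 7.81, 6.62, 7.92 and 6.52 in Control and 8.38, 7.22, 8.39 and 7.36 in Ang II. It was higher in all 4 pairs and gave a log2 fold change of 0.62 (SE 0.11, limma adjusted p = 0.0583). The kinase Cdk2 (0.40), the inhibitor Cdkn2c (0.34), the cyclin Ccne2 (0.51) and E2f1 (0.43) also rose. E2f1 had pair differences of 0.06, 0.85, 0.01 and 0.82. Among genes with a symbol that were above background on all 16 arrays and alike in all 4 pairs, the largest rise was that of Clspn, the adaptor claspin that carries the replication checkpoint from ATR to CHK1. It read 4.72, 2.25, 5.03 and 3.68 in Control and 5.44, 4.79, 5.50 and 5.22 in Ang II, and gave a log2 fold change of 1.31 (SE 0.31, limma adjusted p = 0.083). With normexp its value was 0.32, still past the limits. The call was lost for Ccne2 and E2f1 without replicate 2 or 4, and for Cdkn2c without replicate 1.

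Repair and mitosis genes were also among those that rose. Of 34 tested genes of DNA repair and translesion synthesis 8 rose and 0 fell, where 6.78% of all genes rose and 4.68% fell. Brca1, of homologous recombination, gave a log2 fold change of 0.82 (SE 0.19, limma adjusted p = 0.0826), with pair differences of 1.23, 1.14, 0.29 and 0.60. The checkpoint kinases Chek1 (0.46), Chek2 (0.32) and Atm (0.69) and the translesion polymerase Polk (0.29) were among the others. Of 37 mitosis genes 6 rose and 0 fell, and 35 had values above 0. Aurkb, the kinase of the chromosomal passenger complex, gave a log2 fold change of 0.41 (SE 0.09, limma adjusted p = 0.0804), and the centrosomal kinase Nek2 had 0.35. Of 17 genes of the anaphase-promoting complex Cdc26 (0.33) and Cdc27 (0.36) rose. Of 36 genes of the nuclear pore and nuclear transport 6 rose and 0 fell, among them the importin Kpna3 (0.48), the pore scaffold Nup107 (0.45) and the exportin Xpo1 (0.30). Their pair differences were 0.78, 0.37, 0.47 and 0.31 for Kpna3 and 0.28, 0.20, 0.42 and 0.30 for Xpo1, and both were higher in all 4 pairs. Dropping 1 replicate ended the call of Chek1 without replicate 2 or 4, of Atm without replicate 1, 2 or 4, of Polk without replicate 4, of Cdc27 without replicate 1 or 3, and of Xpo1 without replicate 3. With normexp Brca1 had 0.22 and did not pass. Over the other processing tried, the values nearest 0 were 0.07 for Atm and Cdc27, 0.14 for Chek2, 0.16 for Kpna3 and 0.19 for Nek2. These were short of the fold limit, as were Cdc26 and Xpo1 at 0.26. Polk had -0.0067 for a probe on its own. Chek1, Aurkb and Nup107 stayed at 0.32 or more.

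Cytosolic chaperones went the opposite way to those of the endoplasmic reticulum. Of 29 tested heat shock proteins of cytosol and mitochondria 8 rose and 0 fell, where 6.78% of all genes rose and 4.68% fell. The median was 0.15, and the pair medians were 0.05, 0.36, 0.04 and 0.18, again larger in pairs 2 and 4. At an unadjusted limma p under 0.05 there were 11 higher and 2 lower. Hsph1, the HSP110 nucleotide exchange factor of HSP70, carries the heat shock element printed above (rn4 chr12:5809732-5809791 for the array probe). It read 7.30, 7.23, 7.74 and 7.24 in Control and 8.13, 8.65, 8.17 and 8.72 in Ang II. Every Ang II array was above every Control array, with pair differences of 0.83, 1.42, 0.42 and 1.48, and Hsph1 gave a log2 fold change of 1.04 (SE 0.18, limma adjusted p = 0.0576). The inducible HSP70 gene Hspa1b, whose probe may also detect its near-identical neighbour, had 0.67, with pair differences of -0.07, 1.62, -0.01 and 1.14. The constitutive Hspa8 (0.34), Hsp90aa1 (0.29), the HSP40 genes Dnaja1 (0.47) and Dnajb4 (0.40), and the HSP90 partners Stip1 (0.49) and Fkbp4 (0.35) also rose. Calls were lost for Hspa1b and Hsp90aa1 without replicate 2 or 4, and for Hspa8 without replicate 4. The element of 3 inverted units with 2 free bases between them was found in 7 of 23 promoters available for the list, including those of Hsph1, Dnaja1 and Hspa8, and in 0.798% of all promoters. None of the 8 genes of the CCT chaperonin passed, with values from -0.12 to 0.22.

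**Figure D5:**
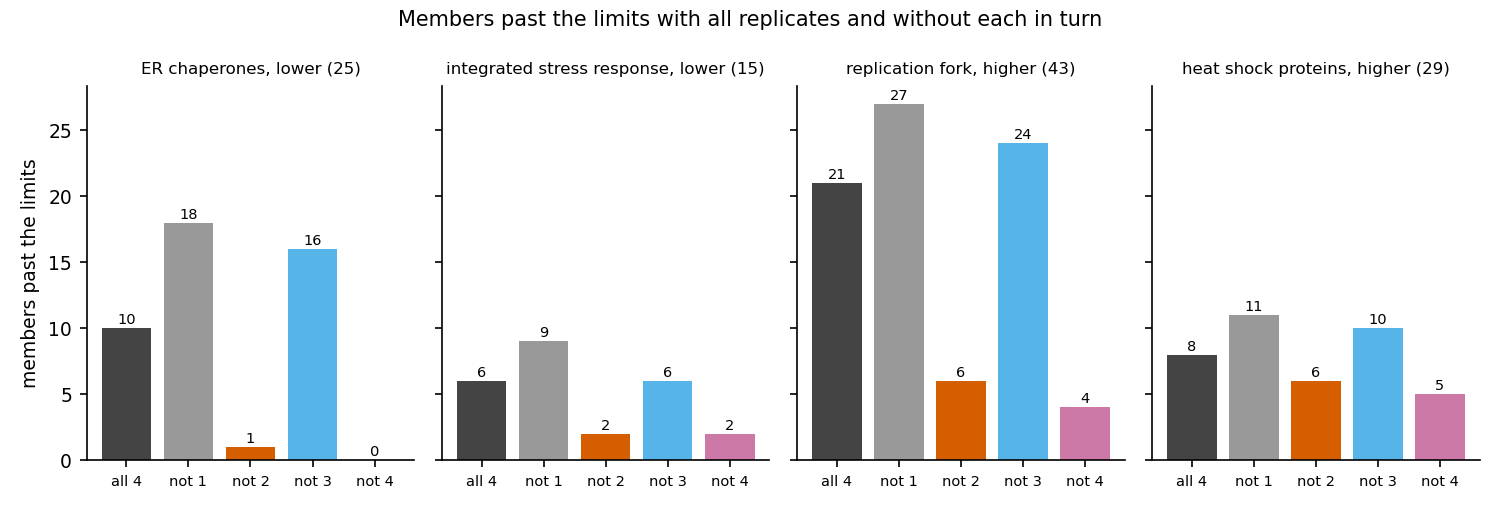
Number of list members past the limits (vertical axis) in Ang II x Control at 6 h with all 4 replicates (dark bar) and without each replicate number in turn (coloured bars), for 4 lists with the number of members tested in brackets. The endoplasmic reticulum count goes from 10 to 1 without replicate 2 and to 0 without replicate 4, and the heat shock count from 8 to 6 and 5.

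Some genes of cholesterol synthesis, which the transcription factor SREBP2 switches on when sterols are low, were higher. Of 22 tested 6 rose and 0 fell, where 6.78% of all genes rose and 4.68% fell. The median was 0.16 and the pair medians were 0.13, 0.26, -0.02 and 0.34. Insig1, which holds SREBP in the endoplasmic reticulum and is its target, read 8.26, 11.20, 11.16 and 11.01 in Control and 8.98, 11.44, 11.48 and 11.55 in Ang II. Replicate 1 was low in both groups, and Ang II was the higher array in all 4 pairs. Insig1 gave a log2 fold change of 0.45 (SE 0.08, limma adjusted p = 0.0583). The synthesis enzymes Hmgcs1 (0.32), Idi1 (0.38) and Nsdhl (0.34) also rose. Of 28 genes of glycolysis, glycogen and the pentose phosphate path 5 rose and 0 fell, among them phosphofructokinase Pfkl (0.41) and the glycogen branching enzyme Gbe1 (0.37). Among these, the call ended for Hmgcs1 without replicate 4, and for Idi1 without replicate 2 or 4. None of the 11 fatty acid synthesis genes passed.

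The receptors of Ang II were too dim to be compared. Agtr1a, Agtr1b and Agtr2 were not well above background on any of the 16 arrays of 6 h. Of the 11 tested genes of the renin-angiotensin system Prcp, a lysosomal peptidase that cleaves Ang II, rose and 0 fell, and it gave a log2 fold change of 0.32 (SE 0.07, limma adjusted p = 0.0774). Downstream of the receptor 6 of 36 G protein signalling genes rose and 1 fell, where 6.78% of all genes rose and 4.68% fell. The alpha subunit Gnaq (0.28), the calcium channel Itpr2 (0.32), protein kinase C epsilon Prkce (0.69) and the cytoskeletal kinase Rock1 (0.48) were higher, and the GTPase activator Rgs16 (-0.49) was lower. Removing 1 replicate ended the call of Gnaq without replicate 1 or 4, of Prkce without replicate 2, of Rock1 without replicate 1 or 3, and of Rgs16 without replicate 2 or 3. Itpr2 had a value near 0 with normexp. Over the other processing tried, the values nearest 0 were 0.08 for Gnaq, 0.15 for Prkce, 0.25 for Rock1, -0.10 for Rgs16 and 0.13 for Prcp. All of these were short of the fold limits. Prkce and Rgs16 were dim and had no probe above background on all 16 arrays.

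Among genes that answer to ERK, the ETS factors Etv1 (0.49) and Etv4 (0.32) and the phosphatases Dusp6 (0.37) and Dusp7 (0.48) rose, 5 of 18 in all with 0 lower. The list's pair medians were 0.02, 0.34, 0.00 and 0.21. Etv1 had pair differences of 0.60, 0.50, 0.19 and 0.65 and gave a log2 fold change of 0.49 (SE 0.11, limma adjusted p = 0.0804). Of 18 immediate early transcription factors 3 rose, Egr1 (0.47), Ier3 (0.35) and Klf10 (0.33), and 0 fell. Over all genes 6.78% rose and 4.68% fell. Limits were no longer met by Dusp6, Dusp7, Egr1 and Ier3 without replicate 2 or 4, by Etv4 without replicate 1, 2 or 4, by Klf10 without replicate 2, 3 or 4, and by Hbegf without replicate 2. Hbegf, the growth factor shed on AT1 activation, read 8.61, 7.44, 9.33 and 7.47 in Control and 9.03, 8.45, 9.39 and 7.78 in Ang II, and gave a log2 fold change of 0.45 (SE 0.14, limma adjusted p = 0.124). The 2 groups overlapped, and the pair differences were 0.42, 1.01, 0.06 and 0.30. Adam17, a protease that sheds such growth factors, had 0.38. The p38 activator Map2k6 had 0.74, and the phosphodiesterase Pde4b, which breaks down cAMP, had 0.78.

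Inflammatory genes were mixed. Of 27 tested genes of NF-kB, the inflammasome and chemokines 5 rose and 1 fell, where 6.78% of all genes rose and 4.68% fell. Nlrp3, the inflammasome sensor, was dim, above background on 10 of 16 arrays and 2 of 4 Control arrays, and read 2.34, 3.31, 3.49 and 3.55 in Control and 3.26, 3.59, 3.81 and 4.03 in Ang II. It was higher in all 4 pairs and gave a log2 fold change of 0.50 (SE 0.16, limma adjusted p = 0.134), but 0.05 with normexp, which did not pass. Nlrp3 entered the test only through a group given Ang II, and such entry favours a rise. The kinase Tbk1 (0.48) and the chemokine Ccl7 (0.55) rose, and the cytokine Il18 fell (-0.45). In the TGF-beta family 2 of 22 tested genes rose and 3 fell. The ligand Tgfb1 rose (0.42), and the ligands Tgfb2 (-0.66) and Inhba (-0.56) and the receptor Tgfbr1 (-0.43) fell. Inhba had pair differences of -0.56, -0.61, -0.34 and -0.72. Of 29 matrix genes 2 rose and 3 fell, among them the gelatinase Mmp2 (0.60), which rose, and type I collagen Col1a1 (-0.39), which fell. Cytoskeletal and adhesion genes that rose included vinculin Vcl (0.34), Actn1 (0.39), the adaptor Crk (0.63) and Vasp (0.45). Crk had pair differences of 0.68, 0.73, 0.51 and 0.60. Of these genes the call was lost for Ccl7, Tgfb1, Tgfb2 and Tgfbr1 without replicate 2 or 4, of Il18 and Vcl without replicate 2, of Mmp2 without replicate 4, of Col1a1 without replicate 1 or 3, and of Actn1 without replicate 1 or 4.

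Among NADPH oxidase genes 3 of 9 fell, the organizer Noxo1, the activator Noxa1 (-0.56) and Ncf4 (-0.83). Noxo1 had the lowest fold change of any gene with a symbol that was above background on all 16 arrays and moved the same way in all 4 pairs. It read 6.51, 10.48, 5.43 and 5.74 in Control and 5.87, 6.22, 5.25 and 5.28 in Ang II. Control replicate 2 was far above the other 7 arrays, and Noxo1 gave a log2 fold change of -1.39 (SE 0.63, limma adjusted p = 0.227). Without replicate 2 its value was -0.41, still past the limits, and without replicate 1 or 4 it did not pass. St3gal2, a sialyltransferase, was high on 1 Ang II array, with 6.57, 5.82, 6.94 and 6.05 in Control and 7.07, 6.89, 7.19 and 9.22 in Ang II. It gave a log2 fold change of 1.25 (SE 0.40, limma adjusted p = 0.13), and 0.60 without replicate 4, still past the limits. Clock genes split, with 4 of 20 that rose and 3 that fell, where 6.78% of all genes rose and 4.68% fell. Arntl2 (0.83), a partner of CLOCK, and the repressors Nr1d1 (0.49) and Bhlhe40 (0.34) rose. Others among the 12 highest and 12 lowest fold changes were Spsb1 (0.91), the kinase Map4k3 (0.75), Sh3d19 (0.75) and dynamin Dnm1 (0.74), which rose, and the ganglioside enzyme B4galnt1 (-0.997), the olfactory receptor Olr7 (-0.99), Tmem141 (-0.97), Fmo6 (-0.90), keratin Krt5 (-0.87), the transcription factor Grhl1 (-0.86) and Psd2 (-0.85), which fell. In this group the limits were missed by Bhlhe40, Olr7 and Grhl1 without replicate 2 or 4, by Ncf4 without replicate 2 or 3, by Nr1d1 without replicate 1, 2 or 4, by Dnm1 without replicate 2, by B4galnt1 without replicate 1 or 3, by Fmo6 without replicate 4, and by Krt5 without replicate 1. With normexp the values were -0.29 for B4galnt1, -0.13 for Tmem141, -0.19 for Fmo6, -0.16 for Krt5 and 0.22 for Arntl2, and none of these 5 passed. Over all other processing tried, more genes had a value short of the fold limits. The values nearest 0 were 0.16 for Spsb1, 0.24 for Map4k3, 0.11 for Dnm1, 0.16 for Nr1d1 and 0.21 for Bhlhe40. Among genes that fell they were -0.29 for Olr7, -0.13 for Psd2, -0.18 for Noxa1 and -0.24 for Ncf4.

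A panel of genes was also measured by PCR in the same project. On the arrays that panel corresponds to 14 genes, with the AT1 receptor as Agtr1a and Agtr1b, and 11 were bright enough to be tested. Aqp2 and Lamb1 fell and Hbegf and Nlrp3 rose. Of these, Aqp2 and Nlrp3 did not pass with normexp, Lamb1 lost the call without replicate 2 or 4, and Hbegf without replicate 2. Vegfa, the angiogenic growth factor, had -0.32 with an unadjusted p under 0.05 and missed the fold limit of 0.8. The others did not pass, with 0.17 for Gapdh, 0.17 for Map2k4, 0.01 for Prkca, -0.04 for Bcar1, -0.14 for Agtrap, the AT1 receptor-associated protein, and -0.21 for Ctgf.

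Large parts of the transcriptome gave no call. None of the 77 tested cytosolic ribosomal protein genes passed the limits, with values between -0.22 and 0.13. Nor did any of 62 genes of oxidative phosphorylation, 20 of Wnt and beta-catenin, or 13 of calcineurin and NFAT. In all, 8 of 53 lists had 0 members past the limits. Ribosome biogenesis had 1 of 40 past the limits but 8 lower at an unadjusted p under 0.05, with a median of -0.09. Of 66 markers of 6 brain and stromal cell types 37 were bright enough to be tested and 4 passed the limits, where 11.5% of all genes did. Glul, the glutamine synthetase of astrocytes (0.33), and Cnp, of oligodendrocytes (0.43), rose, and the neuronal tubulin Tubb3 (-0.72) and Col1a1 (-0.39) fell. Glul lost the call without replicate 2, 3 or 4, Tubb3 without replicate 2 or 4, and Col1a1 without replicate 1 or 3. Gfap, the filament of mature astrocytes, exceeded background on only 2 of 16 arrays, and the astrocyte transporters Slc1a2 and Slc1a3 on 0.

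The groups that received an antagonist with Ang II were set against the same Control arrays, so their values are not independent of those above, and the differences between the groups given Ang II were not tested here. Ang II+Los x Control and Ang II+PD123319 x Control gave, in log2 fold change, -1.20 and -1.19 for Ddit3, -1.20 and -1.34 for Creld2, -1.003 and -0.91 for Herpud1, 0.39 and 0.27 for Mcm4, 0.98 and 0.91 for Hsph1, 0.66 and 0.64 for Socs1, 0.40 and 0.42 for Insig1. Values for a few other genes, chosen after they were seen, were as follows. Hbegf had 0.45 with Ang II, 0.38 with Ang II+Los and 0.02 with Ang II+PD123319. Krt5 had -0.87, 0.05 and -0.63, and Aqp2 had -0.62, -0.23 and -0.57 in the same order.

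Against 3 h, the test of the difference itself found little at single genes. Dim spots were given values in different ways at 3 h and 6 h, as described below. Of 13614 genes tested at both times, 968 (7.11%) differed between 6 h and 3 h in Ang II x Control at an unadjusted p under 0.05, and 0 at a limma adjusted p under 0.05, where the lowest was 0.680. The 5 genes with the lowest p were Cybasc3, Tnfrsf25, Vdac3, Rab35 and Ctps, and none of them passed the limits at 6 h. Of 23 endoplasmic reticulum members tested at both times 1 differed at an unadjusted p under 0.05, and of 42 replication genes 4 did.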

How the data were processed

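The authors scanned each array with Agilent Feature Extraction, and the deposited scanner files hold its intensity values, of which the background-corrected processed signal was used. Per the file headers the software was version 9.5.3.1 and the probe coordinates are rn4. The deposited log2 values equalled log2 of that processed signal on the spots they held, and 38.2% of their cells were blank.

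Outlier spots were left out, dim spots kept the scanner's surrogate value, and spots of a probe were averaged. The log2 signals of the 16 arrays of 6 h were normalized by cyclic loess (span 0.7, 3 iterations). A probe was kept where some group had it well above background on each of its 4 arrays. A gene dim in Control could thus enter through another group. Probes were averaged per gene, and all 4 groups were fitted in limma 3.58.1 (R 4.3.3) with the replicate number as a block. In the scanner files each replicate number marked 1 slide, and the series record names paired tests for these arrays. Deviations from group means correlated at 0.609 to 0.746 between Control and Ang II arrays of the same number and at no more than 0.0587 otherwise. Each group was centred on its own 4 arrays, which pulls the values between different numbers down, so this contrast is partly built in. Adjusted p-values are Benjamini-Hochberg values over all genes tested. For 6 h against 3 h, all 32 arrays were normalized together and fitted with the slide as a block. The scanner had set no surrogates on the 3 h arrays, so dim spots there took the error of the processed signal as their value.

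The comparison, the gene lists and the naming rule were chosen with earlier results of these data known. The rule named the 12 highest and 12 lowest fold changes among genes with a symbol above background on all 16 arrays and alike in all 4 pairs, the 10 lowest p-values, up to 4 members of each list by p with its extremes, the PCR genes and the 5 lowest p-values of 6 h against 3 h. Other list members named were chosen after their values were seen. Promoters came from RefSeq (GRCr8). Some genes are not reported here.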

Additional observations from a re-analysis of the deposited data

Results flagged for a closer look

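Among the genes named, the 4 arrays of Control and of Ang II were checked for a value whose gap to its nearest neighbour was large against the group's range (Dixon's test). This marked 16 of 322 groups, close to the 1 in 20 that chance gives, and no explanation was tested for any of them. The values are normalized log2 signals.

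Several lay in replicate 1. Insig1 was low in Control replicate 1 at 8.26 (others 11.01 to 11.20) and in Ang II replicate 1 at 8.98 (others 11.44 to 11.55). Il18 read 5.08 in Control replicate 1 (others 7.02 to 7.22), Prcp 5.71 (others 6.12 to 6.15) and Slc7a1 7.13 in Ang II replicate 1 (others 7.90 to 8.05). Dnm1 read 2.75 in Control and 3.76 in Ang II replicate 1, where the others were at least 4.05 and 4.73. Bcar1 was high in that replicate, at 10.92 in Control and 11.02 in Ang II, and Mapk11 at 5.36 in Ang II (others 4.60 to 4.72).

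In replicate 3, Hsph1 read 7.74 in Control (others 7.23 to 7.30), Slc9a3r1 8.38 (others 7.56 to 7.65) and Etv4 6.79 (others 6.08 to 6.17), and Ccl7 read 9.08 in Ang II (others 9.86 to 9.99). Orc4l read 7.60 in Ang II replicate 2 (others 8.68 to 8.77), and St3gal2 read 9.22 in Ang II replicate 4 (others 6.89 to 7.19).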

How the results depend on the processing

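Without the replicate block, the pairing by slide being left out, 528 genes passed the limits (304 higher, 224 lower) in place of 1884, with 0 at an adjusted p under 0.10 and 663 at an unadjusted p under 0.05. Under that fit 1 integrated stress, 1 endoplasmic reticulum and 1 replication gene passed. A paired t-test per gene, the kind the series record names (the paper's methods name t-tests without saying whether they were paired), gave 730 genes (469 higher, 261 lower), 2 at an adjusted p under 0.10, and 1, 0, 2 and 2 members of the integrated stress, endoplasmic reticulum, heat shock and replication lists. An unpaired t-test gave 286 (155 higher, 131 lower), 0 at an adjusted p under 0.10, and 0, 0, 5 and 0 members. Fitting the 8 arrays alone left 0 genes at an adjusted p under 0.10, 3 integrated stress and 4 endoplasmic reticulum members. Normexp background correction gave 756 genes (441 higher, 315 lower) and 150 at an adjusted p under 0.10. With only probes above background on all 16 arrays 740 genes reached an adjusted p under 0.10 and 69 one under 0.05, and with no filter 1 and 1. The deposited log2 values gave 706 higher genes, 47 at an adjusted p under 0.05 and 3 integrated stress members. The higher share of the calls was 59.2%, 44.2% with 75th percentile scaling and 65.0% with quantile normalization.

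Leaving out 1 replicate at a time, the genes past the limits ran from 1233 to 2568, higher from 782 to 1456, lower from 451 to 1112, those at an adjusted p under 0.10 from 0 to 1242 and under 0.05 from 0 to 227. Integrated stress members ran from 2 to 9, endoplasmic reticulum members from 0 to 18, heat shock members from 5 to 11 and replication members from 4 to 27, and the 6 h against 3 h count from 435 to 1390. With replicates 1 and 3 alone, chosen after seeing the data, 429 genes were lower and 0 had an adjusted p under 0.10. In that fit 0 integrated stress and 0 endoplasmic reticulum members were lower. Higher were 4 heat shock, 3 replication and 3 endoplasmic reticulum members. There 463 of the 1884 calls were kept and 1794 had the same sign. The 1884 were chosen on values that include replicates 1 and 3, which favours a shared sign. Signs turned for Creld2 (0.0768), Dnajb9 (0.144), Dnajc3 (0.0332), Sdf2l1 (0.0175), Syvn1 (0.0248), Hspa5 (0.217), Hyou1 (0.123), Manf (0.239), Atf4 (0.0748), Eif2ak3 (0.0464), Gadd45a (0.0523), Lamb1 (0.0087), Ctgf (0.0341), Bcar1 (0.0242), Hspa1b (-0.0391) and Prkca (-0.0352). Other turns were at values near 0: Itpr2 (-0.0036) and Prkca (-0.0680) with normexp, Polk (-0.0067) and Prkca (-0.0964) for a probe on its own, Bcar1 (0.0203) and Prkca (-0.0091) in the deposited values, and Prkca from -0.0150 to 0.0368 over the replicates left out. The cause was not tested for any of these changes. Of the 150 genes named as past the limits, Hsph1, Etv1, Vasp and Slc9a3r1 kept call and direction in every other processing tried that kept at least 3 replicates. With 4 arrays a group the number of arrays limits precision, and dim genes such as Nlrp3 lie near the scanner background.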

Other observations

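Calls were also counted in stress programmes outside the endoplasmic reticulum, beside 6.78% of all genes that rose and 4.68% that fell. Of 19 tested p53 targets 3 rose and 2 fell. Ei24 (0.38), an endoplasmic reticulum protein of autophagy, Zmat3 (0.29) and Sesn1 (0.50), a sestrin that restrains mTORC1, rose, and Tp53inp1 (-0.47) fell, with pair differences of 0.52, 0.32, 0.33 and 0.33 for Ei24 and -0.47, -0.60, 0.06 and -0.85 for Tp53inp1. Of 28 NRF2 antioxidant targets and related genes 1 rose, catalase Cat (0.45), and 3 fell, among them the metal-binding metallothioneins Mt1a (-0.52) and Mt2A (-0.38). Of 18 hypoxia-responsive genes 3 rose and 0 fell, the glycoprotein hormone Stc1 (0.43), Ndrg1 (0.29) and the kinase Pdk1 (0.33), which inhibits pyruvate dehydrogenase. The call ended for Mt1a, Mt2A, Stc1, Ndrg1 and Pdk1 without replicate 2 or 4, for Zmat3 without replicate 2, for Sesn1 without replicate 1, 2 or 3, for Tp53inp1 without replicate 4, and for Cat without replicate 1, 3 or 4.

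Genes of RNA and protein handling were mostly below the limits. Of 34 translation initiation genes the helicase Eif4a1 (0.31) rose, with pair differences of 0.25, 0.45, 0.26 and 0.27, and Eif2b3 (-0.56), a subunit of the exchange factor for eIF2, fell, with pair differences of -0.05, -1.03, -0.03 and -1.15. Of 46 splicing genes 2 rose and 1 fell, the SR protein gene Sfrs5 (-0.42). Of 38 proteasome genes 1 rose and 0 fell. Of 26 MAP kinase genes Map2k6 rose and Mapk11 (-0.37), a p38 kinase, fell, with pair differences of -0.19, -0.34, -0.50 and -0.44 for Mapk11.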
